A study of Mus musculus with 4 samples.

Results

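The genes described here are 9 tight junction genes, chosen by name: the claudins Cldn1, Cldn3, Cldn4, Cldn6 and Cldn7, and Ocln, Tjp1, F11r and Marveld2. All 9 were found among the 24411 gene symbols of each expression table. They were measured by RNA-seq of poly(A)-selected RNA in 4 cultures of the 4T1 line, a widely used model of mouse mammary carcinoma, grown in RPMI medium with fetal bovine serum. There were 2 control libraries and 2 CD95ko-labelled libraries, each from a single-cell clone in which 2 guide RNAs were used to delete exon 9 of the gene for the death receptor CD95 (Fas). The parent of the clones was a 4T1 line carrying a lentiviral Cas9 under blasticidin selection. RNA was taken from untreated control cells, from that Cas9 line and from both clones, and the titles leave it unsaid which of these control sources gave which library. Each clone is 1 culture, so p-values measure only the spread between 2 different control lines and between 2 different clones.

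Tight junctions seal the space between neighbouring epithelial cells near their apical border and separate the apical from the basolateral membrane. Claudins are membrane proteins with several membrane-spanning segments that line up into strands, and the claudins present in a cell set how tight or how ion-selective the seal is. Occludin (Ocln) and tricellulin (Marveld2) are related membrane proteins of the MARVEL family, the latter concentrated where 3 cells meet. JAM-A (F11r) is an immunoglobulin-type adhesion molecule, and ZO-1 (Tjp1) is the cytoplasmic scaffold that ties the strands to actin. Loss of claudins and occludin is a known feature of the epithelial-mesenchymal transition in mammary tumours.

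The values are TPM, transcript abundance normalized for transcript length and library size, so levels can be compared between genes of 1 library. Between libraries TPM is relative, and the comparison depends on the scaling. Sequencing depth is unknown from TPM, and a value of 0 is given as listed at 0. The median TPM of the 11167 tested genes lay between 16.3 and 22.9, lowest in control 2. Across genes, log2(TPM + 1) differed with an SD of 0.662 from control to control and of 1.04 from clone to clone. Fas, the targeted gene, was listed at 49.4 and 39.2 TPM in the controls, at 15.8 TPM in the library labelled CD95ko 1 and at 49.5 TPM in the library labelled CD95ko 2. Fas transcript was thus not reduced in the second clone, so libraries are named by their labels. A gene-level value cannot show whether exon 9 itself is missing. Of 6 mammary epithelial markers, Epcam, Krt8, Krt18 and Cdh1 were present in all 4 libraries, at higher values in both CD95ko-labelled libraries. The others differed from this: Krt5 was listed at 0 in all 4 libraries. Krt14 had 24.1 and 20.7 TPM in the controls, 6.98 TPM in the library labelled CD95ko 1 and 158 TPM in the library labelled CD95ko 2. Of 6 endothelial markers 5 were listed at 0 throughout, as were 5 of 6 immune markers. The exception among the immune markers was Cd68, at 44.6 and 42.1 TPM in the controls. It had 17.8 TPM in the library labelled CD95ko 1 and 146 TPM in the library labelled CD95ko 2. The 6 fibroblast markers summed to between 0.97 and 4.52 TPM.

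The promoters of the 9 genes were searched for the E-box CAGGTG, or CACCTG on the other strand, because it is the DNA element bound by the repressors Snai1, Zeb1 and Zeb2 that are known to silence claudins and occludin. In the 250 bases before the annotated starts (RefSeq, GRCm38.p6), 5 of the 9 genes held at least 1 such hexamer: Cldn4, Cldn6, Cldn7, Ocln and F11r. Over all 32851 promoter entries of this table the share with a hexamer was 17.2%. That share is per entry, whereas a gene counted if any of its entries held a hexamer. Cldn7, Ocln and Marveld2 have more than 1 entry, so the count and the share are not like for like. The match windows are shown 5′ to 3′ on the gene's strand, with the hexamer in capitals.
Cldn4, chr5:134946935-134946960, minus strand: ctttaactgcagCACCTGtggccgcc
Cldn6, chr17:23679260-23679289, plus strand: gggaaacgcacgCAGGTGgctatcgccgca
Cldn7, chr11:69965312-69965341, plus strand: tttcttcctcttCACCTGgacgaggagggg
Cldn7, chr11:69965352-69965381, plus strand: agacttccggttCAGGTGagtgtcccttca
Ocln, chr13:100552694-100552723, minus strand: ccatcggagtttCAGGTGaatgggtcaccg
Ocln, chr13:100552549-100552578, minus strand: ctaggggctcggCAGGTGggtcccagcgca
F11r, chr1:171437427-171437456, plus strand: agttcggggttgCACCTGcgtacggtgagt
The hexamer in Cldn4 began 14 bases before the annotated start, the nearest of the 7. Those of Cldn7 and Ocln lay only before the more downstream annotated start, and the window before the upstream start held none. The hexamers of Cldn6, Cldn7 and Ocln lie inside these genes as annotated by GENCODE M21 (GRCm38). No match was found in the searched window of Cldn1, Cldn3, Marveld2 or Tjp1, and genes with and without the hexamer each included high and low ones. Motif AACNNGTT of the grainyhead-like family, activators of epithelial junction genes, was found before none of the 9 genes and in 3.64% of all entries. These matches describe the letters of the windows only.

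The 9 genes spanned the whole range of expression, and their order was nearly the same in all 4 libraries. Cldn4 was the highest in every library and Cldn3 came second in every library. F11r and Cldn7 followed, and their values overlapped. Tjp1, Ocln and Marveld2 formed a lower tier of between 11.9 and 26.2 TPM in which the values also overlapped. Cldn6 and Cldn1 were at or near 0. Cldn4 lay at percentiles 98.6 to 99.0 of the tested genes, and Ocln at 38.4 to 53.9.

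**Figure D1:**
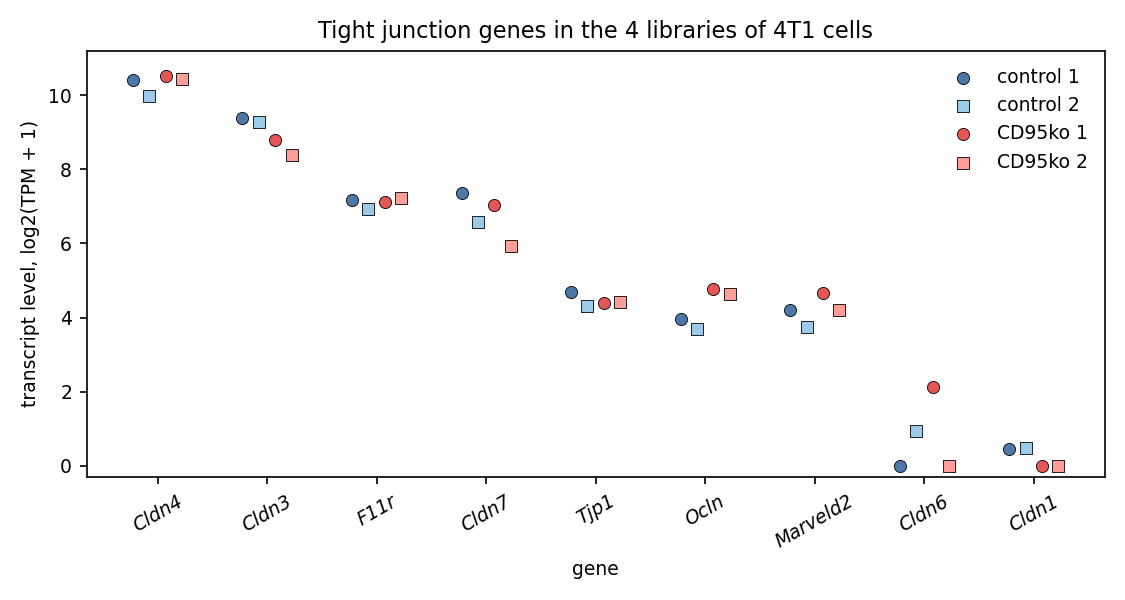
Transcript level of each of the 9 genes on a log2(TPM + 1) axis, with 1 point per library (blue, controls; red, CD95ko-labelled libraries). Cldn4 was highest in all 4 libraries, Cldn3 was lower and Ocln higher in both CD95ko-labelled libraries, and Cldn1 and Cldn6 were at or near 0.

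The design sets the libraries labelled CD95ko against the controls, to ask which transcripts differ between them. None of the 9 genes passed the limma threshold of 0.05 after adjustment over all 11167 genes, a threshold that 6 genes (0.0537%) passed. The largest differences within the set were a lower level of Cldn3 and a higher level of Ocln in both CD95ko-labelled libraries. Of the 7 genes with enough signal to be tested, 1 had an unadjusted limma p under 0.05 and was lower, beside 5.68% of all tested genes that were lower at that level and 9.25% that were higher. The groups did not overlap for 3 of the 7, 2 higher and 1 lower, where 29.2% of all tested genes did not overlap and were higher and 18.3% did not overlap and were lower (47.6% in all). The median log2 fold change of the 7 was 0.13, and that of all tested genes was also 0.13. As a set, then, the counts and the median were close to those of the whole transcriptome. Scaling mattered for that background: higher genes made up 62.0% of those at an unadjusted p under 0.05, 51.9% under quantile normalization and 44.5% after scaling to the library median, which moved the median of all genes to -0.059. In bulk cultures, fewer cells with a transcript and less transcript per cell cannot be told apart.

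Cldn3 encodes claudin-3, a sealing claudin that is abundant in glandular epithelia. It is a single-exon gene at chr5:134986214-134987472 on the plus strand (GENCODE M21, GRCm38). The controls had 671 and 615 TPM, and the CD95ko-labelled libraries 1 and 2 had 441 and 336 TPM. Both CD95ko-labelled values lay below both controls, and the gap between the groups was larger than that within either. The means were 643 ± 39.6 and 389 ± 73.8 TPM (SD, n = 2 in each group), so the mean of the CD95ko-labelled libraries was 60.4% of the control mean. On the log2(TPM + 1) scale the difference was -0.74 ± 0.29 SE, with a 95% interval of -1.39 to -0.09 (limma unadjusted p = 0.0303, adjusted p = 0.278). With all 4 libraries, the unadjusted limma p was 0.111 without the variance trend and 0.0517 with a replicate block. The lower level was kept whichever library was left out. The log2 difference was -0.67 without control 1 and -0.80 without control 2. It was -0.93 without the library labelled CD95ko 1 and -0.54 without the library labelled CD95ko 2. An antisense gene, Wbscr25, overlaps Cldn3 by 40 bases and was listed at no more than 1.63 TPM.

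Cldn4 encodes claudin-4, which shares much of its sequence with claudin-3 and is likewise a sealing claudin. It lies 39279 bases from Cldn3 on chromosome 5 with no annotated gene lying wholly between them, as a single exon at chr5:134945119-134946934 on the minus strand. It was listed at 1370 and 1001 TPM in the controls, 1470 TPM in the library labelled CD95ko 1 and 1377 TPM in the library labelled CD95ko 2. The lower CD95ko-labelled value was just above control 1, and the controls lay farther apart than the group means. The log2 difference was 0.28 ± 0.28 SE, with a 95% interval of -0.37 to 0.93 (limma adjusted p = 0.678). Between them, Cldn3 and Cldn4 share 13 stretches of 25 nucleotides, which are 1.05% of those of Cldn3 and 0.725% of those of Cldn4.

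The estimates for the neighbours Cldn3 and Cldn4 had opposite signs, although that of Cldn4 did not pass the test and was only 0.07 after scaling to library medians. Their ratio within a library does not depend on how libraries are scaled to each other by a constant. Cldn4 was 2.04 and 1.63 times Cldn3 in the controls, and 3.34 and 4.09 times Cldn3 in the CD95ko-labelled libraries 1 and 2. No value of one group reached the other. This ratio was chosen after the values had been seen, so it is given without a test. With 2 libraries against 2, an exact permutation test could not give a two-sided p under 0.333 in any case.

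On the TPM scale as deposited, claudin transcripts as a whole were at a similar level in both groups. The sums were 2026 ± 363 TPM for the controls and 1995 ± 195 TPM for the CD95ko-labelled libraries (SD, n = 2). That similarity depends on the scaling, since control 2 had the lowest median TPM of the tested genes. After scaling to library medians, the log2 differences of Cldn3, Cldn4 and Cldn7 were -0.948, 0.07 and -0.692, against -0.737, 0.281 and -0.484 as deposited. Of 31 claudin genes in the tables, between 6 and 10 were above 0 in a library. Cldn3, Cldn4 and Cldn7 together held 95.5% to 96.7% of all claudin TPM. The share of Cldn3 was 29.4% and 34.8% in the controls and 20.7% and 18.1% in the CD95ko-labelled libraries 1 and 2. The share of Cldn4 was 60.0% and 56.6% in the controls and 68.9% and 74.1% in the CD95ko-labelled libraries. These shares sum to 100% within a library, so a lower share of Cldn3 raises that of the rest.

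**Figure D2:**
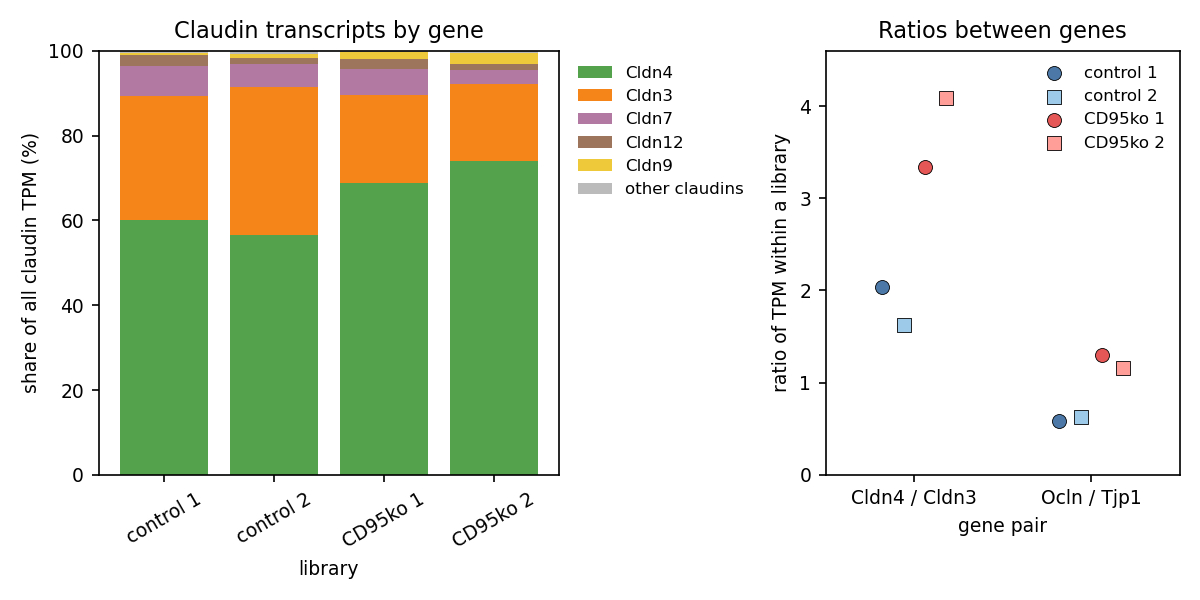
Left, share of all claudin TPM held by each claudin gene in each library, as stacked bars that sum to 100%. Right, the TPM ratios Cldn4 to Cldn3 and Ocln to Tjp1, with 1 point per library; in both ratios the 2 CD95ko-labelled libraries lay above the 2 controls.

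Cldn7 encodes claudin-7, which is found along the lateral membrane as well as in tight junctions and binds the adhesion molecule EpCAM. Its TPM was 163 and 95.1 in the controls and 131 and 60.0 in the CD95ko-labelled libraries 1 and 2. The groups overlapped. In both groups the second library was the lower, at 58.5% of the first in the controls and 45.8% in the clones, and the mean of the CD95ko-labelled libraries was 74.1% of the control mean. The log2 difference between the groups was -0.48 ± 0.45 SE (95% interval -1.5 to 0.53, limma adjusted p = 0.643), and it was 0.0728 without the library labelled CD95ko 2.

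Cldn1 and Cldn6 did not pass the filter of at least 1 TPM in at least 2 libraries and were not tested. Cldn1, a claudin of many tight epithelia and of the epidermal barrier, was listed at 0.37 and 0.40 TPM in the controls and at 0 in both CD95ko-labelled libraries. Cldn6, a claudin of embryonic epithelia, was listed at 0 in control 1, 0.92 TPM in control 2, 3.33 TPM in the library labelled CD95ko 1 and 0 in the library labelled CD95ko 2. No difference between the groups is read from values this low.

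Occludin was the member with the largest positive difference. Ocln lies on chromosome 13 at chr13:100496507-100552718 on the minus strand. The controls had 14.6 and 11.9 TPM, against 26.2 TPM in the library labelled CD95ko 1 and 23.8 TPM in the library labelled CD95ko 2. Both CD95ko-labelled values were well above both controls, and each group was tight, at 13.2 ± 1.90 and 25.0 ± 1.72 TPM (SD, n = 2). The mean of the CD95ko-labelled libraries was 189% of the control mean, yet the log2 difference of 0.87 ± 0.44 SE had a 95% interval of -0.13 to 1.87 and did not pass the test (limma unadjusted p = 0.0792, adjusted p = 0.390). The log2 difference was smaller under the other scalings, at 0.675 after scaling to library medians and 0.665 under quantile normalization.

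Marveld2, which encodes tricellulin, lies 43238 bases from Ocln on the same strand, at chr13:100595957-100616971, with no protein-coding gene between them. It was 17.4 and 12.4 TPM in the controls and 24.3 and 17.3 TPM in the CD95ko-labelled libraries 1 and 2. The lower CD95ko-labelled value lay just inside the control range. The log2 difference was 0.45 ± 0.47 SE (95% interval -0.60 to 1.51, limma adjusted p = 0.683). It was 0.255 after scaling to library medians and 0.234 under quantile normalization.

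Marveld3 completes the MARVEL family of tight junction proteins and is not among the 9. Its values were 19.4 and 11.5 TPM in the controls and 45.3 and 40.2 TPM in the CD95ko-labelled libraries. All 3 MARVEL genes thus had a higher mean in the CD95ko-labelled libraries under each scaling tried. The log2 difference of Marveld3 was 1.45 ± 0.44 SE (limma unadjusted p = 0.00928, adjusted p = 0.197).

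The scaffold and the adhesion molecule had the smallest differences of the 7 tested genes on the TPM scale as deposited, though Cldn4 had the smallest after scaling to library medians. Tjp1 was 25.0 and 18.9 TPM in the controls and 20.1 and 20.5 TPM in the CD95ko-labelled libraries, which both lay between the controls. Its log2 difference was -0.09 ± 0.43 SE (95% interval -1.07 to 0.88, limma adjusted p = 0.944). The difference of Tjp1 was larger under the other scalings, at -0.293 after scaling to library medians and -0.298 under quantile normalization. F11r was 143 and 120 TPM in the controls and 138 and 148 TPM in the CD95ko-labelled libraries. For F11r the log2 difference was 0.13 ± 0.31 SE (95% interval -0.56 to 0.82, limma adjusted p = 0.879), and its sign flipped to -0.081 when libraries were scaled to their medians. Both intervals leave room for a difference in either direction.

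Occludin and its scaffold ZO-1 changed places in the order of levels. The ratio of Ocln to Tjp1 was 0.584 and 0.630 in the controls and 1.3 and 1.16 in the CD95ko-labelled libraries 1 and 2. Tjp1 was above Ocln in both controls and below it in both CD95ko-labelled libraries. This ratio was also chosen after its values had been seen and carries no test.

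**Figure D3:**
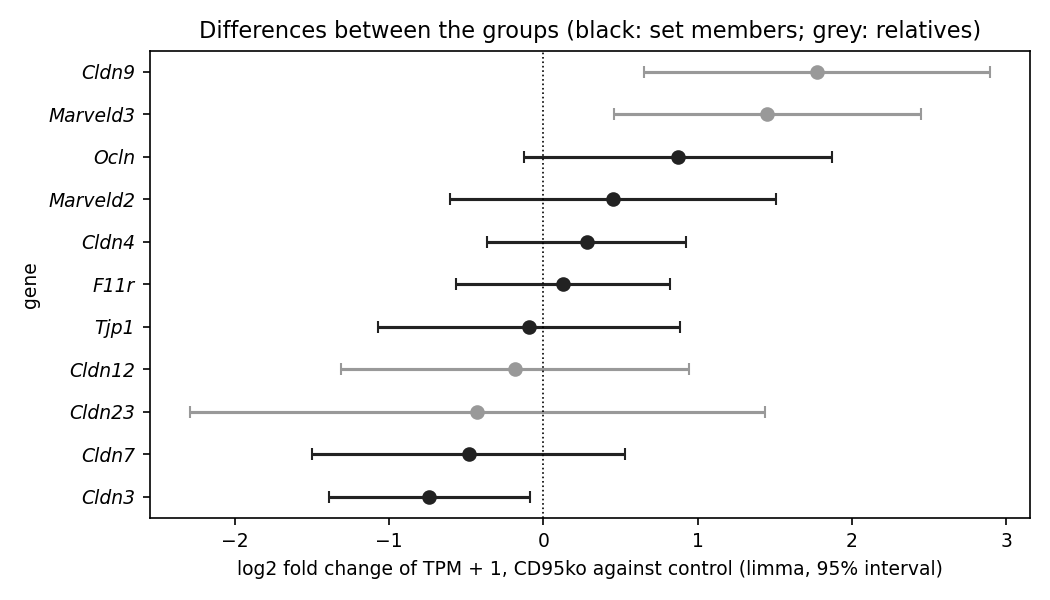
Difference between the groups in log2(TPM + 1) for the 7 tested genes of the set (black) and 4 relatives (grey), with 95% intervals from limma. Of the black points only Cldn3 has an interval that leaves out 0; among the relatives Cldn9 and Marveld3 do.

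Among the other claudins, 18 of 19 listed genes were found in the tables and 12 of them were listed at 0 in all 4 libraries, including the pore-forming Cldn2 and the endothelial Cldn5. Cldn9, Cldn12 and Cldn23 were tested, and 1 of them had an unadjusted limma p under 0.05, beside 14.9% of all tested genes. This count was not kept without control 1, where fewer of all tested genes were under that p too. The gene was Cldn9, at 7.92 and 18.3 TPM in the controls and 39.6 and 48.7 TPM in the CD95ko-labelled libraries. The groups did not overlap, and the log2 difference was 1.77 ± 0.49 SE (limma unadjusted p = 0.00602, adjusted p = 0.174). Cldn9 ends 137 bases from the end of Cldn6 on chromosome 17, on the opposite strand, and they share 21 stretches of 25 nucleotides, 1.48% of those of Cldn9. Cldn12, the highest of these claudins by its mean over the 4 libraries but below Cldn9 in the library labelled CD95ko 2, was 59.2 and 26.8 TPM in the controls and 47.5 and 25.9 TPM in the CD95ko-labelled libraries, which overlapped. Cldn23 ranged from 0.88 to 9.25 TPM, and both of those values came from CD95ko-labelled libraries.

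Of 10 further membrane proteins of the junction, 4 were tested and Marveld3 alone had an unadjusted limma p under 0.05, beside 14.9% of all tested genes. This was not kept without control 2, where fewer of all tested genes were under that p too. Lsr, the angulin that recruits tricellulin to tricellular contacts, was 175 TPM in both controls and 182 and 171 TPM in the CD95ko-labelled libraries. The log2 difference of Lsr was 0.01 ± 0.29 SE. Crb3, an apical polarity protein, ranged from 46.9 to 52.4 TPM over the 4 libraries. Cxadr, an adhesion receptor of the junction, was 51.6 and 45.8 TPM in the controls and 45 and 29.7 TPM in the CD95ko-labelled libraries. Its log2 difference was -0.40 ± 0.39 SE.

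The cytoplasmic scaffolds had 15 tested members of 16, and none passed after adjustment. At an unadjusted limma p under 0.05, 4 were higher and 1 was lower, beside 9.25% and 5.68% of all tested genes. Their median log2 fold change was 0.35, beside 0.13 for all tested genes. Amotl1, an angiomotin that links junctions to actin and binds the YAP coactivator, was 72.4 and 54.7 TPM in the controls and 151 and 181 TPM in the CD95ko-labelled libraries (log2 difference 1.38 ± 0.33 SE, limma adjusted p = 0.145). Its relative Amot was also higher, at 1.67 and 2.02 against 7.07 and 6.01 TPM. Cgnl1, or paracingulin, which binds ZO proteins, was 59.4 and 38.5 TPM in the controls and 88.4 and 123 TPM in the CD95ko-labelled libraries. Magi3 was 9.56 and 3.49 TPM against 15.0 and 23.5 TPM. Ybx3, a Y-box protein that binds ZO-1, was the most abundant, at 427 and 382 TPM against 348 and 206 TPM. The count of 4 was 5 with a replicate block and 3 under robust eBayes. Over all tested genes, 1033 were higher at that level in the main fit, 1020 with the block and 1069 under robust eBayes. The scaffold count was also smaller without control 1, without control 2 and without the library labelled CD95ko 2. In each of those runs with a library left out, fewer of all tested genes were higher at that level too.

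Among the Par and Scribble polarity proteins, 9 of 10 genes were tested and 1 had an unadjusted limma p under 0.05, near the share of 14.9% over all tested genes. This count was not kept without control 2, where fewer of all tested genes were under that p too. Llgl1, a basolateral polarity protein, was 29.8 and 19.7 TPM in the controls and 66.5 and 57.0 TPM in the CD95ko-labelled libraries (log2 difference 1.31 ± 0.39 SE, limma adjusted p = 0.197). Scrib, which acts with it, was 33.1 and 16.4 TPM against 38.2 and 39.1 TPM. Prkcz, an atypical protein kinase C of the apical complex, was 6.56 and 7.79 TPM against 18.8 and 9.07 TPM. Prkci, the more abundant kinase, was 62.7 and 39.3 TPM against 56.8 and 54.7 TPM. Llgl2 was 20.8 and 13.2 TPM against 32.4 and 19.5 TPM, which overlapped.

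The other epithelial junctions gave a larger count than the tight junction genes did. All 17 genes of adherens junctions and desmosomes were tested, with a median log2 fold change of 1.06. None passed after adjustment, while 8 were higher and 1 was lower at an unadjusted limma p under 0.05, beside 9.25% and 5.68% of all tested genes. Among the epithelial marker genes, 3 of 5 tested were higher at that level, while Krt14 overlapped between the groups. Krt8 was 537 and 570 TPM in the controls against 1047 and 1722 TPM. The 6 markers, which share Cdh1 with this list, summed to 2605 and 2664 TPM in the controls and to 4203 and 7860 TPM in the CD95ko-labelled libraries, and their part in the result was not tested. Ctnna1, the catenin that couples cadherin to actin, was 128 and 96.2 TPM in the controls and 256 and 313 TPM in the CD95ko-labelled libraries (log2 difference 1.34 ± 0.31 SE, limma adjusted p = 0.144). Ctnnb1, the catenin that binds it to cadherin, was 221 and 187 TPM against 316 and 519 TPM. Jup, shared by adherens junctions and desmosomes, was 74.9 and 49.5 TPM against 132 and 220.2 TPM. The plakin Ppl was 6.12 and 4.68 TPM against 20.9 and 61.1 TPM, and its partner Evpl was 2.00 and 0.80 TPM against 9.15 and 8.06 TPM. The count of 8 higher genes was 5 after scaling to library medians, 6 under quantile normalization and 6 without the variance trend. Over all tested genes, 1033 were higher at that level in the main fit and 816, 967 and 1020 in those runs. The list's count was also smaller without control 1 and without control 2, where fewer of all tested genes were higher too. It was smaller without the library labelled CD95ko 1 as well, where more of all tested genes were higher. The difference between this list and the tight junction genes was not tested.

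EpCAM binds claudin-7 and helps to keep it stable, and the membrane protease matriptase (St14) cleaves EpCAM and releases the claudin. Epcam was 179 and 166 TPM in the controls and 532 and 565 TPM in the CD95ko-labelled libraries (log2 difference 1.67 ± 0.28 SE, limma adjusted p = 0.0676). Prss8, the protease prostasin that acts with matriptase, was 23.3 and 9.48 TPM against 31.7 and 57.0 TPM. The matriptase inhibitor Spint1 was 95.3 and 85.7 TPM against 129 and 190 TPM, and the related Spint2 was 529 and 457 TPM against 439 and 748 TPM. Cldn7, which encodes the claudin bound by EpCAM, had a mean of 74.1% of the controls in the same libraries, as given above.

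Of 6 E-box repressors, Zeb1 and Snai2 were listed at 0 in all 4 libraries. Twist1 was 37.7 and 30.3 TPM in the controls and 12.2 and 17 TPM in the CD95ko-labelled libraries (log2 difference -1.17 ± 0.43 SE, limma unadjusted p = 0.0247, adjusted p = 0.267). Zeb2 was 5.46 and 2.42 TPM against 0.34 and 1.80 TPM, and Snai1 was 11.9 and 17.4 TPM against 11.5 and 8.76 TPM. Tcf3, an E-box factor that can act as a repressor of Cdh1, was 63.1 and 49.3 TPM against 76.2 and 113 TPM. Of 11 epithelial transcription factors and splicing regulators, 10 were tested and 0 had an unadjusted limma p under 0.05, beside 14.9% of all tested genes. Without the variance trend 1 of the 10 was lower at that p, beside 511 of all 11167 tested genes. The count of 0 was also not kept without the library labelled CD95ko 1, where more of all tested genes were under that p. Nor was it kept without the library labelled CD95ko 2, where fewer were. Elf3 had 73.1 and 62.7 TPM in the controls, against 80.4 TPM in the library labelled CD95ko 1 and 276 TPM in the library labelled CD95ko 2. Ovol2, a repressor of mesenchymal genes, showed the same split, at 9.63 and 6.60 TPM in the controls against 10.2 and 30.9 TPM. Klf5 was 108 and 120 TPM against 97.5 and 59.9 TPM, and the splicing factor Esrp2 was 20.7 and 13.9 TPM against 29.8 and 28.7 TPM.

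**Figure D4:**
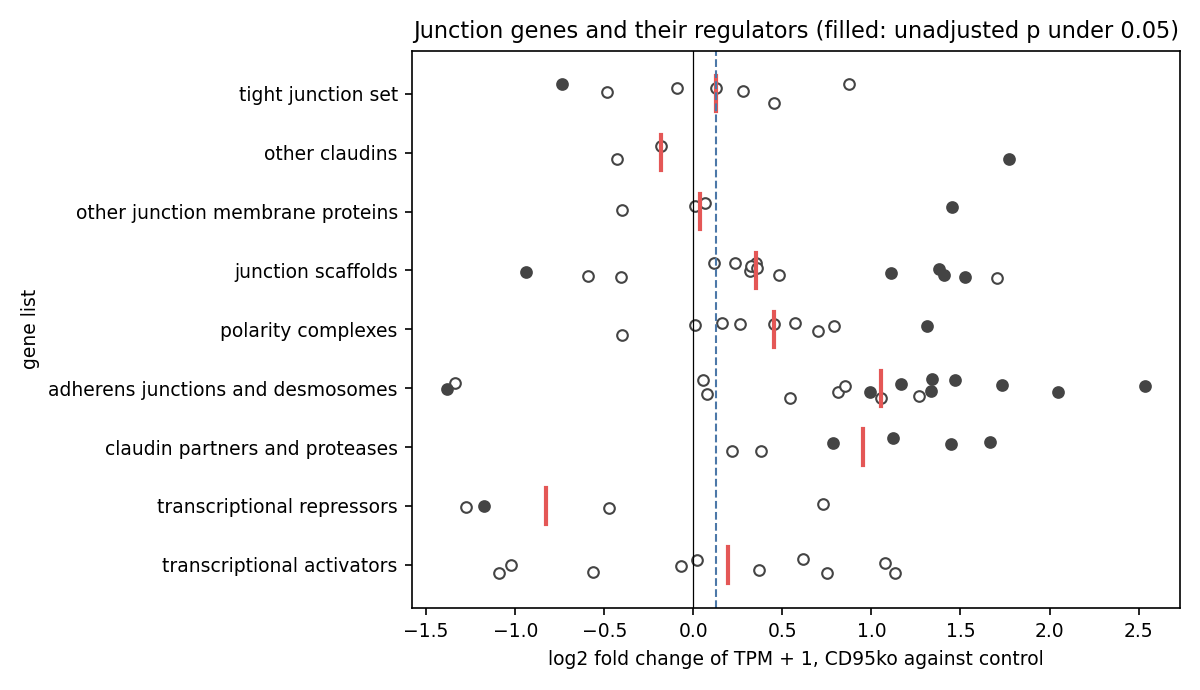
Difference between the groups in log2(TPM + 1) for every tested gene of each list, 1 point per gene (filled, unadjusted limma p under 0.05), with the list's median as a red bar and the median of all tested genes, 0.13, as a dashed line. The median of the tight junction set lies on the dashed line, and that of the adherens junction and desmosome genes at 1.06.

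The profile of the tight junction genes over the 4 libraries, as the mean of the centred log2(TPM + 1) values of the 7 tested genes, was 0.16 and -0.22 in controls 1 and 2, and 0.18 and -0.12 in the CD95ko-labelled libraries 1 and 2. It separated the first from the second library of each group more than it separated the groups. The profile was not scaled to library medians. The median TPM of all tested genes also differed, at 22.3 and 16.3 in controls 1 and 2 and 22.9 and 21.3 in the CD95ko-labelled libraries 1 and 2. What part this had in the profile was not tested. Genes near to the profile by root mean square distance over the 4 libraries included Cdc42bpa (0.0248), Spred1, Zfyve9 and Spop (0.0331). Cdc42bpa, a kinase that acts downstream of Cdc42, was 16.6 and 11.9 TPM in the controls and 16.8 and 13.3 TPM in the CD95ko-labelled libraries. This mean hides the members' own patterns, since Cldn3 and Ocln lay on opposite sides of it.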

How the data were processed

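The deposited tables pair a gene symbol with a TPM value, per the file headers, 1 table per library. STAR 2.6.0, RSEM 1.3.0 and the build mm10 are named without a role in the submitters' processing notes, and the annotation is not given in the sources used here. TPM keeps no read number, so no counting interval or floor could be given. Titles gave the groups and replicate numbers. A gene was tested if it reached 1 TPM in 2 or more libraries (11167 of 24411), and values were compared as log2(TPM + 1) with limma 3.58.1 in R 4.3.3 (eBayes with a mean-variance trend, all 4 libraries, no covariate, two-sided), with Benjamini-Hochberg adjustment over all tested genes. The procedure was also run on simulated data with independent normal noise and no shift of whole libraries. That run cannot show how the test behaves on libraries that differ as these do. The members and the lists were chosen with earlier results of these data known. Genes named beside the members were, per list, up to 4 with the smallest p and the highest by level, and the 5 nearest profiles; some genes that met this rule are not reported here. Older symbols were matched through RefSeq (GRCm38.p6); 1 listed gene, Cldn25, had no single match. Gene positions and shared 25-nucleotide stretches came from GENCODE M21 (GRCm38), and promoters from RefSeq. Alternatives were another pseudocount (0.1), no filter, no variance trend, robust eBayes, quantile normalization, scaling to library medians, a replicate block and leaving out each library. The ratios and the counts of listed genes under these settings were chosen after seeing the data.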

Additional observations from a re-analysis of the deposited data

How the results depend on the processing

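The number of genes past an adjusted limma p of 0.05 was 6, and 0 under each of 5 settings: no filter, no variance trend, 0.1 as the pseudocount, scaling to library medians and quantile normalization (1636, 1531, 1553, 1832 and 1862 genes at an unadjusted p under 0.05). It was 52 under robust eBayes and from 0 to 1034 when a library was left out, where the lone library of a group is assumed to vary like the other group. The number of tested tight junction genes at an unadjusted p under 0.05, 1 as reported, was 0 without the variance trend and from 0 to 2 when a library was left out; the cause was not tested. Cldn3 was lower and Ocln higher under every alternative run, and the adjusted p of Cldn3 ranged from 0.0577 to 0.875. Signs reversed for F11r after scaling to library medians (-0.081), for Tjp1 when a library was left out (-0.29 to 0.10, positive without control 1) and for Cldn7 (-1.04 to 0.0728, positive without the library labelled CD95ko 2); the other 74 values of the 7 genes under the alternatives kept their sign and stayed above an adjusted p of 0.05. The log2 ratio of Cldn3 to Cldn4 differed by -1.02, and by -1.18 to -0.86 when a library was left out.

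The replicate numbers in the titles name different lines or clones, so no pairing was used in the main fit. For libraries with the same number, the residuals around the group mean had a correlation of -0.081 over genes. With 2 libraries per group this is 1 correlation, which cannot show whether libraries with the same number were handled together. Adding a replicate block left 2 genes past the threshold, 0 of the 7 tight junction genes had an unadjusted p under 0.05, and that of Cldn3 was 0.0517.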

Other observations

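Several junction genes differed more between the clones than between the groups on the log2(TPM + 1) scale. They were picked out after seeing their values and carry no test. Tjp3, the scaffold ZO-3, had 13.0 and 10.9 TPM in the controls, 15.6 TPM in the library labelled CD95ko 1 and 106 TPM in the library labelled CD95ko 2. Dsc2, a desmosomal cadherin, was 4.53 TPM in control 1 and 31.0 TPM in the library labelled CD95ko 1, and was listed at 0 in control 2 and in the library labelled CD95ko 2. Dsg2, its partner cadherin, had 15.7 and 8.72 TPM in the controls, 51.5 TPM in the library labelled CD95ko 1 and 18.6 TPM in the library labelled CD95ko 2. Nectin-4, listed under its older symbol Pvrl4, was 5.09 TPM in control 1 and 25.3 TPM in the library labelled CD95ko 2, and was listed at 0 in the others. Nectin-2 (Pvrl2), a cell adhesion molecule of adherens junctions, had 135 and 186 TPM in the controls, 31.4 TPM in the library labelled CD95ko 1 and 115 TPM in the library labelled CD95ko 2.

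The luminal keratin Krt18 and the basal keratin Krt14 also differed between the clones, and both were higher in the library labelled CD95ko 2. Krt18 had 1707 and 1753 TPM in the controls, 2412 TPM in the library labelled CD95ko 1 and 5160 TPM in the library labelled CD95ko 2. Krt14 had 24.1 and 20.7 TPM in the controls, 6.98 TPM in the library labelled CD95ko 1 and 158 TPM in the library labelled CD95ko 2. Cldn4, by comparison, was 1470 and 1377 TPM in the clones.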
